A study of Homo sapiens with 16 samples.

Results

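The question here was whether the loss of DDX4 changed RNA levels by the same amount in tumors as in cultured cells. For each gene the DDX4-null effect, that is the log2 fold change from control to DDX4-null libraries, was taken in monolayers and in tumors, and the monolayer effect was subtracted from the tumor effect. A positive difference means that the DDX4-null effect was more positive, or less negative, in tumors, and a negative difference the reverse. The contrast was kept to genes with a mean of at least 1 CPM (counts scaled to 1000000 per library after TMM, a normalization between libraries) in at least 3 of the 4 groups, which held for 11989 of the 20356 genes counted and of the 13603 tested. Of these, 11468 reached 1 CPM in all 4 groups and 521 in exactly 3, with the low group being control monolayers for 220 of them, DDX4-null monolayers for 230, control tumors for 33 and DDX4-null tumors for 38. At the edge of the rule, the second lowest group mean was 1.001 CPM for TRAF1, which is in, and 0.998 CPM for SEC14L5, which is not.

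The cells were PC3, an established human prostate cancer line. The 4 groups were control PC3 monolayers, DDX4-null PC3 monolayers, xenograft tumors of control PC3 cells and xenograft tumors of DDX4-null PC3 cells, with 4 RNA-seq libraries each. The sources used here do not say how the DDX4-null cells and their controls were made, whether they were clones, or what the species, age and site of the host were. Nor do the labels tell whether each library had its own culture or animal, so every p-value here stands for the spread among the sequenced libraries, part or all of which may be technical.

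DDX4 is an RNA helicase of germ cells, where it sits in cytoplasmic granules and works in the control of germline messenger RNAs and in the pathway of piRNAs, small RNAs that silence transposons. A contrast of this kind is the interaction of genotype and setting. It is large when an effect is present in one setting and absent in the other, when it has another size, or when it turns its direction, and the single effects beside it tell these cases apart. Xenograft tissue holds host stroma and vessels besides the implanted cells, and reads of host genes can be counted on the human genes they resemble.

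DDX4 RNA itself was near the counting floor, at 0 to 5 counts per library. The group sums were 10 counts in control and 7 in DDX4-null monolayers (exact two-sided permutation p = 0.543), and 13 in control and 11 in DDX4-null tumors (exact p = 0.971, where the smallest p the design allows is 0.0286), so a change was not detectable at this depth and these counts do not check the labels. Library totals ran from 12204254 to 25443952 counts. The epithelial keratins KRT8, KRT18 and KRT19 had group means of at least 211 CPM. They belong to a list of 13 prostate epithelium and PC3 markers. That list summed to 973 to 1121 CPM in control and 1608 to 1939 CPM in DDX4-null monolayers, without overlap. Its sums were 1246 to 1395 CPM in control tumors and 1197 to 1711 CPM in DDX4-null tumors. The prostate markers KLK3 in control monolayers, FOLH1 in DDX4-null monolayers and both in DDX4-null tumors had 0 counts. The summed level of 13 fibroblast markers was 123 to 214 CPM in monolayers, 1852 to 2355 CPM in control tumors and 2080 to 11604 CPM in DDX4-null tumors, where library 1 held the 11604 CPM. Skeletal muscle markers summed to 14.8 to 20.3 CPM in monolayers and 143 to 515 CPM in tumors, and leukocyte markers to at most 2.8 CPM and to 15 to 75.2 CPM.

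The DDX4-null effect differed between tumors and monolayers in most genes, and in most of those it was called in monolayers and not in tumors. With edgeR's quasi-likelihood test at an adjusted p under 0.05, 6426 of 11989 genes (53.6%) had a called difference, 3345 of them positive (27.9%) and 3081 negative (25.7%). Over all 13603 genes tested, 7181 were called (52.8%), 3532 positive (26%) and 3649 negative (26.8%). Which direction had more calls thus changed with the 1 CPM rule. With library totals in place of TMM, the calls among the 11989 genes were 2547 positive and 3793 negative. The median difference moved from 0.02 to -0.12 on the log2 scale. Among the genes at 1 CPM or more in all 4 groups, 3153 were positive (27.5%) and 2872 negative (25%). The difference was at least 2-fold for 1196 positive and 1132 negative genes, and over 16-fold for 56 and 69.

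The spread of the effects shows which setting the differences came from. Over all 11989 genes the DDX4-null effect had an SD of 1.04 on the log2 scale in monolayers and of 0.29 in tumors, and their difference one of 1.06. In monolayers 7749 genes were called (64.6%), 3784 higher (31.6%) and 3965 lower (33.1%) in DDX4-null libraries. Over all 13603 genes tested the monolayer calls were 4543 higher (33.4%) and 4199 lower (30.9%). In tumors 696 of the 11989 genes were called (5.81%), 388 higher (3.24%) and 308 lower (2.57%). The tumor count rests on the spread that all 16 libraries share. It was 246 in a fit of the 8 tumor libraries alone, 350 without control tumor 2 and 306 without control tumor 3. In bulk RNA, fewer cells of a type and less RNA per cell cannot be told apart, which holds for every level given here.

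**Figure D1:**
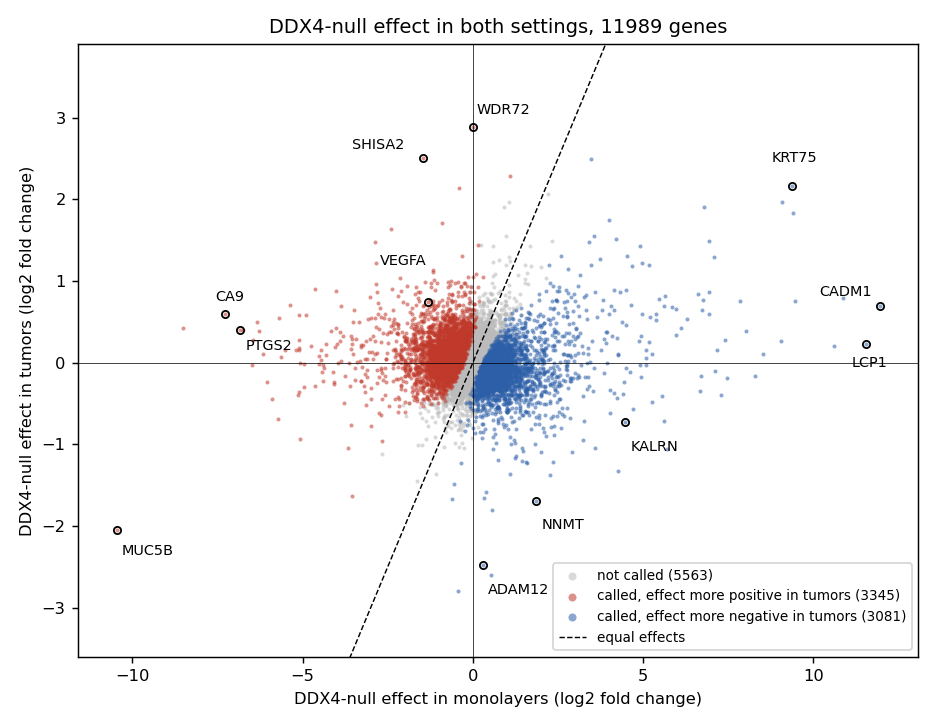
DDX4-null effect in monolayers (x axis, log2 fold change) against the DDX4-null effect in tumors (y axis, log2 fold change) for 11989 genes. Points are colored by the call for the difference, 12 genes described in the text are circled, and the cloud does not follow the dashed line of equal effects, being wide along the x axis and flat along the y axis, with SDs of 1.04 and 0.29.

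By class, 5598 of the 6426 called genes (87.1%) had a called effect in monolayers and none called in tumors. Another 262 (4.08%) were called in both settings with opposite directions, 131 lower in DDX4-null monolayers and higher in DDX4-null tumors, and 131 the other way. A further 90 went the same way in both settings and further in monolayers, and 5 the same way and further in tumors. The effect was called in tumors and not in monolayers for 127, and in neither for 344. With each effect taken from the 8 libraries of its own setting, 87 genes were opposite, and without control tumor 2 or 3 there were 135 and 117. The genes whose tumor effect was called and larger in size numbered 194, or 85 with the effects from 8 libraries each, and 112 and 96 without control tumor 2 or 3.

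In 922 called genes (14.3%) 1 group mean stood apart, more than 2-fold above or below the other 3, which lay within 2-fold of each other. DDX4-null monolayers were the group apart in 608 cases, higher in 270 and lower in 338. Control monolayers were higher in 114 and lower in 191. A tumor group stood apart in 9 cases, DDX4-null tumors in 7 of them. In the remaining 913, then, both tumor groups lay with 1 of the monolayer groups.

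For genes with a large effect in monolayers, the tumors of both genotypes were more often nearer to the control monolayers than to the DDX4-null ones. There were 1959 called genes whose monolayer effect was called and at least 2-fold. In 1134 of them (57.9%) both tumor means were nearer to the control monolayers on the log2 scale, and in 624 (31.9%) both were nearer to the DDX4-null monolayers. Among 962 genes that fell in DDX4-null monolayers, 633 (65.8%) had both tumor means nearer to the controls and 257 (26.7%) nearer to the DDX4-null monolayers. Among 997 genes that rose there, the counts were 501 (50.3%) and 367 (36.8%). Nearer includes levels outside the range of the monolayers. Control tumors lay beyond the control monolayers in 601 of the 1959 genes, and DDX4-null tumors in 623. These counts are a description of genes chosen by the monolayer effect.

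The most positive differences among genes at 1 CPM or more in all 4 groups were those of the cyclooxygenase PTGS2, the clathrin assembly protein PICALM, the sorting nexin SNX19, and 3 genes of mucus secretion. PTGS2, which makes the prostaglandin precursor in inflammation, held 129, 123, 129 and 140 CPM in control monolayers and 0.966, 1.06, 0.91 and 1.53 CPM in DDX4-null monolayers. Its tumor libraries held 37.6, 21.4, 20.4 and 31.9 CPM in controls and 42.7, 43.6, 33.3 and 26.6 CPM in DDX4-null libraries. The monolayer groups lay far apart, and the tumor groups overlapped between them. The effect was -6.83 ± 0.24 (SE) in monolayers and 0.40 ± 0.17 in tumors, and the difference 7.23 ± 0.30 (adjusted p = 5.1e-13).

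PICALM held 146 to 159 CPM in control monolayers, 3.49 to 4.87 CPM in DDX4-null monolayers, 114 to 143 CPM in control tumors and 129 to 171 CPM in DDX4-null tumors, a difference of 5.26 ± 0.16. SNX19 held 79.9 to 90.6, 2.2 to 2.73, 49.3 to 59.3 and 48.4 to 65.1 CPM in the same order, a difference of 5.07 ± 0.16. For both genes the DDX4-null monolayers alone were low. Both genes lie on the long arm of chromosome 11, and their neighbors behaved differently. The 3 members that follow PICALM in gene order, EED, a Polycomb subunit, HIKESHI, a nuclear import carrier of heat shock protein, and the malic enzyme ME3, had differences of 5.28, 5.67 and 5.80, and PRSS23, the fourth, of 2.98. SYTL2, the member before PICALM, was at 1.22. Around SNX19, ADAMTS15 was at 1.11 and IGSF9B at -1.15, so the shift there was that of 1 gene among its measured neighbors.

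TFF2, AGR2 and MUC5AC code for a trefoil peptide secreted with mucus, a protein disulfide isomerase relative that mucin folding needs, and a gel-forming mucin. AGR2 held 1325, 959, 1058 and 1453 CPM in control monolayers and 50.7, 61.8, 47.4 and 58.8 CPM in DDX4-null monolayers, and 202 to 284 CPM over all 8 tumor libraries. Its difference was 4.48 ± 0.20, or 3.75 after each chromosome of each library was centred on its median, since it lies on chromosome 7. TFF2 went from 338 ± 63.8 to 21 ± 2.8 CPM (SD, n = 4) in monolayers, and lay at 5.07 to 8.97 CPM in control tumors and 3.09 to 26.6 CPM in DDX4-null tumors. All tumor libraries of TFF2 but DDX4-null tumor 1 lay below every DDX4-null monolayer, while those of AGR2 lay between the monolayer groups. The difference of TFF2 was 4.89 ± 0.51, and 4.27 without DDX4-null tumor 1, which held the 26.6 CPM. MUC5AC went from 38.3 ± 4.46 to 1.85 ± 0.526 CPM in monolayers and was 2.05 to 3.71 CPM in all 8 tumor libraries, a difference of 4.31 ± 0.29.

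The most negative differences were those of genes that rose in DDX4-null monolayers. KRT75, a keratin of the hair follicle, held 1.72, 2.08, 1.93 and 2.72 CPM in control monolayers and 1449, 1563, 1227 and 1324 CPM in DDX4-null monolayers. In the tumors the values were 4.06, 3.18, 3.8 and 4.92 CPM in controls and 25, 22, 13.2 and 12 CPM in DDX4-null libraries. It rose in both settings without overlap of the groups, by 9.36 ± 0.25 in monolayers and 2.16 ± 0.21 in tumors, and the difference was -7.20 ± 0.31 (adjusted p = 1.1e-12). Keratin genes resemble each other, so its reads may be shared with copies.

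ADGRL2, an adhesion receptor of the latrophilin family, rose from 1.24 ± 0.158 to 76.8 ± 6.94 CPM in DDX4-null monolayers and held 1.24 to 2.39 CPM in the 8 tumor libraries, a difference of -5.61 ± 0.22. ADAMTS3, a procollagen protease, rose from 1.64 ± 0.15 to 50 ± 5.71 CPM and held 1.24 to 4.12 CPM in tumors, a difference of -4.95 ± 0.32. NEO1, a receptor of netrins, rose from 2.25 ± 0.776 to 99.7 ± 9.81 CPM, and its tumor groups were at 4.36 ± 0.352 and 7.58 ± 2.37 CPM, a difference of -4.69 ± 0.28. In these 3 genes the DDX4-null monolayers alone were high. The rise of NEO1 in tumors (0.78 ± 0.19) was called in the fit of 16 libraries and not in that of the 8 tumor libraries, nor without DDX4-null tumor 1 (0.60, adjusted p = 0.0611).

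KALRN, an exchange factor of small GTPases, turned its direction. It held 1.32, 1.79, 1.77 and 2.13 CPM in control monolayers and 40.1, 36.5, 42.5 and 37.6 CPM in DDX4-null monolayers, a rise of 4.47 ± 0.17. In tumors it held 6.1, 8.82, 8.43 and 8.82 CPM in controls and 3.63, 5.14, 5.9 and 4.61 CPM in DDX4-null libraries, an effect of -0.73 ± 0.15 that lost its call in the 8 tumor libraries alone. The groups did not overlap in either setting, and both tumor groups lay between the monolayer groups. CD70, a ligand of the tumor necrosis factor family, rose from 2.06 ± 0.578 to 38.6 ± 3.92 CPM in monolayers. Its tumor libraries lay at 23.5 to 30.2 CPM in controls and 11.1 to 26.3 CPM in DDX4-null tumors, much nearer to the DDX4-null monolayers, and its difference was -4.65 ± 0.28.

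**Figure D2:**
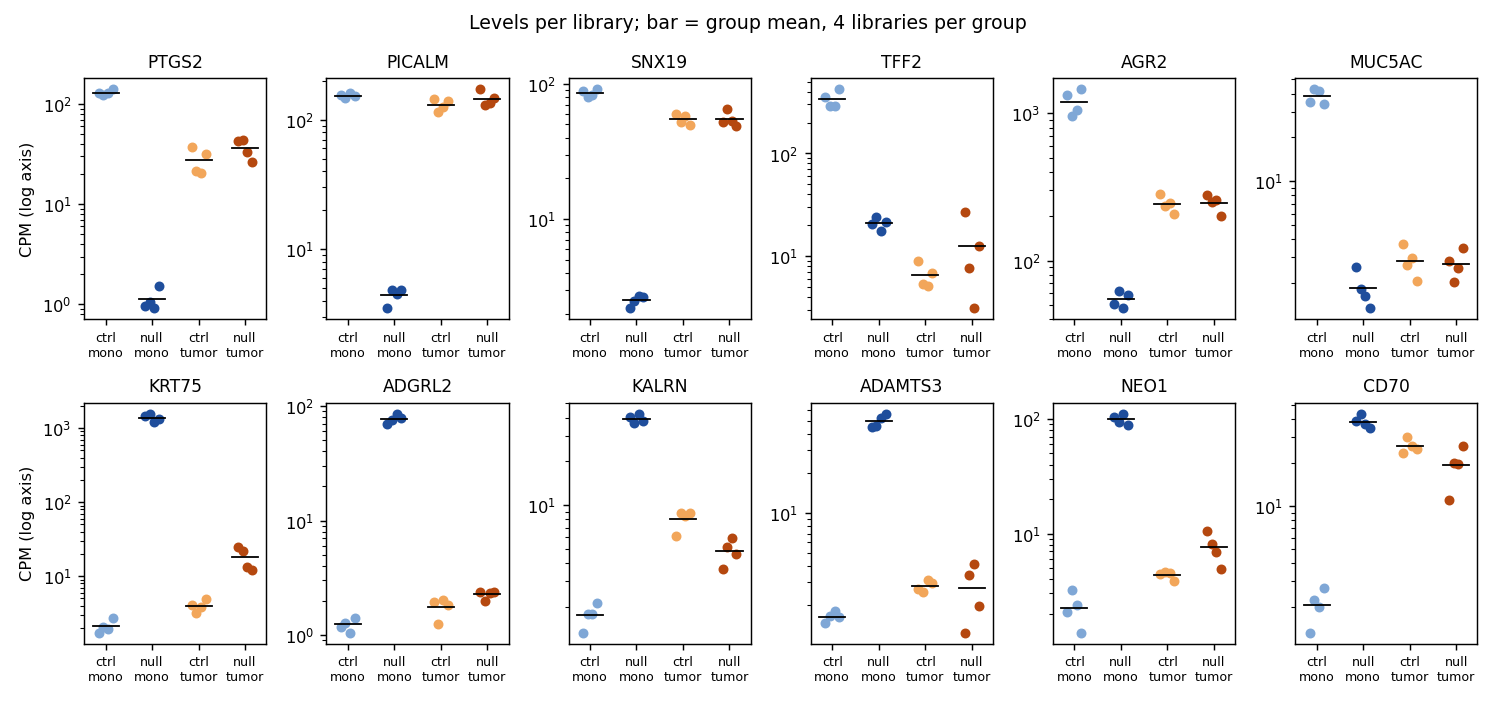
CPM on a log axis in each of 16 libraries (points, 4 per group) for the 6 genes with the most positive (top row) and the 6 with the most negative differences (bottom row) among genes at 1 CPM or more in all groups. Bars are group means, and ctrl, null and mono stand for control, DDX4-null and monolayer. The monolayer groups lie apart in every panel, while the tumor groups overlap except for KRT75, KALRN and NEO1.

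Among the 521 genes with 1 CPM in exactly 3 groups, the group under 1 CPM was mostly a monolayer group, and several of the largest differences came from genes with no count in it. CADM1, an adhesion molecule of the immunoglobulin family, had 0 counts in the 4 control monolayers and 498, 500, 503 and 600 counts in the DDX4-null monolayers, at least 596-fold more when 3 counts are allowed over the control group. SYK, a kinase of immune receptor signaling, had 0 counts against 234, 177, 197 and 219, at least 235-fold more. ZNF222, a zinc finger gene, had 0 counts in DDX4-null monolayers against 28 to 48 per control library, at least 64.6-fold fewer. The tumors of both genotypes expressed all 3 genes, with 1.18 to 1.87 and 1.62 to 2.87 CPM of CADM1, 1 to 1.89 and 1.03 to 3.36 CPM of SYK, and 1.71 to 2.87 and 2.75 to 3.8 CPM of ZNF222 in control and DDX4-null tumors. The tumor effect was not called for any of them, and that of SYK went from 0.20 to -0.25 without DDX4-null tumor 1. With a group at 0, the fitted difference is set by a small offset of the model, and no size is read from it.

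LCP1, an actin-bundling protein of leukocytes, held 0.132, 0.0718, 0.221 and 0.194 CPM in control monolayers and 483, 492, 471 and 528 CPM in DDX4-null monolayers. The tumor values were 7.71 to 13 CPM in controls and 10.2 to 13.7 CPM in DDX4-null libraries, levels between both monolayer groups. Its difference was -11.30 ± 0.27, the control monolayers resting on 10 counts in all. Leukocyte markers summed to at most 75.2 CPM in any tumor, and their part in the tumor level of LCP1 was not tested.

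MUC5B, a gel-forming mucin, held 433, 602, 579 and 421 CPM in control monolayers and 0.591, 0.236, 0.364 and 0.232 CPM in DDX4-null monolayers. In tumors it held 23.3, 29.8, 43.2 and 24.5 CPM in controls and 2.3, 6.92, 15.6 and 3.61 CPM in DDX4-null libraries. It fell in both settings without overlap, with effects of -10.46 ± 0.51 and -2.05 ± 0.34 and a difference of 8.42 ± 0.63. CA9, a cell surface carbonic anhydrase known as a target of hypoxia, went from 10.9 to 12.5 CPM in control monolayers to 5 counts over the 4 DDX4-null monolayers. Its tumor libraries overlapped, at 0.76 to 1.5 CPM in controls and 0.374 to 4.78 CPM in DDX4-null tumors, with the 4.78 CPM in DDX4-null tumor 1, without which the difference went from 7.87 to 6.95.

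Genes that turned their direction most clearly included another mucin. MUC2, the main gel-forming mucin of the intestine, held 183, 228, 219 and 174 CPM in control monolayers and 37.8, 43.8, 41.4 and 29.8 CPM in DDX4-null monolayers. In tumors there were 13, 7.65, 11.6 and 8.97 CPM in controls and 58.5, 33.7, 16.3 and 21.5 CPM in DDX4-null libraries. Its effect was -2.40 ± 0.26 in monolayers and 1.64 ± 0.28 in tumors, with no overlap in either, and the difference was 4.04 ± 0.38. The rise in tumors was 1.21 without DDX4-null tumor 1. MUC2, MUC5AC and MUC5B are neighbors with related repeats on chromosome 11, so reads may be shared between them, which was not tested. In the same order, the DDX4-null effects of these genes in tumors were 1.64, -0.06 and -2.05.

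SHISA2, a protein of the endoplasmic reticulum that holds back Wnt and FGF receptors, held 7.02 to 9.11 CPM in control and 2.85 to 3.37 CPM in DDX4-null monolayers. Control tumors held 1.61, 0.941, 1.06 and 2.38 CPM and DDX4-null tumors 15.9, 5.84, 7.16 and 5.54 CPM. The groups did not overlap in either setting and their order was reversed, with a difference of 3.95 ± 0.43 (3.53 without DDX4-null tumor 1, which was the highest). ZNF415, a zinc finger gene, went from 6.74 to 7.29 CPM down to 0.859 to 1.15 CPM in monolayers and from 2.47 to 3.71 CPM up to 6.1 to 7.89 CPM in tumors, a difference of 4.07 ± 0.25. SCUBE3, a secreted protein that binds growth factor receptors, differed by 4.36 ± 0.54, with 42 CPM in DDX4-null tumor 1 against 9.5 to 18.4 CPM in the other 3 and 5.12 to 9.6 CPM in control tumors. Its tumor effect was 1.48 with and 0.86 without that library.

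In the other direction, NNMT, which methylates nicotinamide, held 21.2 to 30.9 CPM in control and 77.7 to 108 CPM in DDX4-null monolayers. Control tumors held 12.5, 19.4, 14.4 and 11 CPM and DDX4-null tumors 2.03, 7.79, 4.81 and 2.43 CPM. It rose by 1.86 ± 0.23 in monolayers and fell by 1.69 on the log2 scale in tumors, a difference of -3.55 ± 0.35. EPHA4, an ephrin receptor, rose from 2.98 to 4.01 CPM up to 16.1 to 16.9 CPM in monolayers and fell from 6.41 to 9.6 CPM down to 2.7 to 3.45 CPM in tumors, a difference of -3.64 ± 0.21. These 2 genes, MUC2, SHISA2 and ZNF415 kept the tumor call in a fit of the 8 tumor libraries alone. ENTPD3, an ectonucleotidase, differed by -5.59 ± 0.52 and CHST2, a sulfotransferase of glycans, by -2.83 ± 0.41, and both lost the tumor call there, as did SCUBE3. Without DDX4-null tumor 1 the tumor effect of CHST2 went from -1.23 to -1.84.

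Few genes had their larger effect in tumors. The metalloprotease ADAM12 held 4.38 to 6.27 CPM in control and 6.03 to 7.25 CPM in DDX4-null monolayers, which overlapped. Control tumors held 9.67, 5.35, 6.86 and 6.38 CPM and DDX4-null tumors 1.59, 1.78, 0.744 and 0.934 CPM, all below every other library. Its tumor effect was -2.48 ± 0.24 and its difference -2.77 ± 0.32 (adjusted p = 5.3e-07). SYT14, a synaptotagmin, held 1.88 to 3.89 CPM in monolayers, 4.63 to 6.89 CPM in control tumors and 0.0884, 1.3, 1.72 and 0.249 CPM in DDX4-null tumors, a difference of -3.13 ± 0.52. WDR72, known for its part in enamel formation, held 1.4 to 2.36 CPM over the 8 monolayer libraries, 0.0701 to 0.256 CPM in control tumors and 0.541 to 2.56 CPM in DDX4-null tumors, a difference of 2.89 ± 0.60. So WDR72 was low in control tumors alone, while ADAM12 and SYT14 were low in DDX4-null tumors alone. ADAM12 and SYT14 kept the tumor call in the 8 tumor libraries alone, where WDR72 was too low to be tested.

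Lists of genes by pathway showed where the differences gathered. Of the 23 lists, the inflammatory cytokine list had the highest median difference, at 1.84, followed by histones at 1.00, angiogenesis factors at 0.88, and the unfolded protein and ATF4 response at 0.84. S phase genes at -1.35 and G2 and mitosis genes at -1.15 had the lowest. The median over all 11989 genes was 0.02, with 27.9% called positive and 25.7% called negative, and each count below stands against these shares. The lists were put together with earlier results of these libraries known, so their direction is no independent evidence.

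Inflammatory cytokines and their NF-kB regulators are switched on together when NF-kB enters the nucleus. Of 22 measured genes of this list, 21 had a positive call, and TRAF1, at the edge of the 1 CPM rule, was not called (-0.14). In monolayers 19 of them fell, and the median effect was -1.53 there and 0.00 in tumors. The mean log2 level of the list was 6.77 to 6.86 in control monolayers, 4.89 to 5.04 in DDX4-null monolayers, 4.33 to 4.53 in control tumors and 4.22 to 4.45 in DDX4-null tumors. Both tumor groups thus lay below the DDX4-null monolayers and overlapped. The neutrophil chemokines CXCL1, CXCL2, CXCL3 and CXCL8 differed by 3.03, 2.31, 2.24 and 2.18, the cytokines IL1B, CSF2 and LIF by 2.64, 1.86 and 1.41, and the adhesion molecule ICAM1 by 2.54. Of the NF-kB regulators, the subunits RELB, NFKB2 and NFKB1 differed by 1.86, 0.95 and 0.63, and the inhibitors NFKBIA and TNFAIP3 by 1.57 and 0.40. After chromosome centring 19 of the 22 were positive.

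SOD2, the mitochondrial superoxide dismutase, is a known NF-kB target. It held 605, 623, 641 and 542 CPM in control monolayers and 84.2, 72.8, 84.4 and 86.9 CPM in DDX4-null monolayers. Tumors held 77.9 to 89.5 CPM in controls and 83.6 to 108 CPM in DDX4-null libraries, the level of the DDX4-null monolayers. Its difference was 2.99 ± 0.14 (adjusted p = 2.0e-12). For SOD2, then, the difference stood between a monolayer fall and 3 groups at one level, while for PTGS2 the tumors lay at an intermediate level.

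The RefSeq promoter of CXCL1 (GRCh38.p14, chr4:73869143-73869442, plus strand, from 250 bases before to 50 after the start of the gene) is shown because this chemokine had the second largest difference of the list, after PTGS2, and because it holds an NF-kB motif, in capitals, that starts 79 bases before the gene start:
CXCL1: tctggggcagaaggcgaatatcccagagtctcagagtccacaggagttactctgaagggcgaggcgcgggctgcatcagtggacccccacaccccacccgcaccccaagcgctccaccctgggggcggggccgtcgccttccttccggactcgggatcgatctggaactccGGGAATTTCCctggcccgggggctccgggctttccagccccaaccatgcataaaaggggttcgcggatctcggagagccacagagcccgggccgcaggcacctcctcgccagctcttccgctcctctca
The letters searched, on both strands, were GGG, any 2 bases, and TTTCC. They were found in 8 of the 18 list genes with a RefSeq window (44.4%), among them CXCL1, CXCL2, CXCL3, CXCL6 and NFKBIA, against 1.92% of 27305 windows of all genes. A match of letters is a description, not a bound site, and the shares say nothing of NF-kB activity in either setting. The promoters shown here were chosen after the windows had been seen.

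Interferon response genes gave a less settled picture, since DDX4-null tumors differed strongly among themselves. Of 36 measured genes 11 had a positive and 2 a negative call, with a median difference of 0.66. The positive share was close to the 27.9% of all genes, and the negative share was below their 25.7%. Their mean log2 level was 5.22 to 5.42 in control monolayers, 4.05 to 4.18 in DDX4-null monolayers and 5.88 to 6.47 in control tumors, and DDX4-null tumors 1 to 4 were at 3.72, 6.39, 6.31 and 4.79. In monolayers 20 of the genes fell and the levels did not overlap, while the DDX4-null tumors spanned a wider range than all other libraries together. The positive count was 20 without DDX4-null tumor 1 and 7 without DDX4-null tumor 2 or 3, and 5 with limma's voom test. IFI44L held 65.8 to 71.9 CPM in control and 2.95 to 4.61 CPM in DDX4-null monolayers, 87.9, 110, 110 and 76.3 CPM in control tumors, and 10.3, 151, 133 and 29.8 CPM in DDX4-null tumors, a difference of 3.83 ± 0.70. IRF9, the DNA-binding subunit of the factor that interferon activates, differed by 3.19 ± 0.51, with 0.278 to 0.946 CPM in DDX4-null monolayers against 4.36 to 6.34 CPM in controls. The ubiquitin-like ligase HERC5 (-1.90) and the membrane protein IFITM2 (-1.12) were negative.

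Genes of antigen presentation by MHC class I had 11 positive and 2 negative calls among 21, with a median difference of 0.65. Here too DDX4-null tumors differed among themselves. The mean log2 level of the list was 4.84, 5.42, 5.65 and 4.88 in DDX4-null tumors 1 to 4, against 5.33 to 5.65 in control tumors. Without DDX4-null tumor 1 the counts were 12 positive and 2 negative. The proteasome activator PSME2 held 134 to 190 CPM in control and 47.4 to 58.2 CPM in DDX4-null monolayers, and 114 to 143 and 96.5 to 124 CPM in tumors, a difference of 1.39 ± 0.17. The transcription factor IRF1 and another immunoproteasome subunit, PSMB10, both differed by 1.51. HLA-B (-0.73) and the immunoproteasome subunit PSMB8 (-0.80) went the other way, while HLA-E was at 0.65. The chaperones CALR and PDIA3, which load MHC class I and also belong to the unfolded protein list, differed by 1.27 and 0.92.

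Cell cycle genes made up the most uniform negative group. Of 35 S phase genes 31 had a negative call, and CCNE1 (-0.56), MCM7 (-0.11), CDC6 (-0.05) and the polymerase subunit POLE (-0.04) were not called. Their mean log2 level was 4.08 to 4.20 in control monolayers, 5.08 to 5.17 in DDX4-null monolayers, 5.16 to 5.43 in control tumors and at most 5.15 in DDX4-null tumors. The control monolayers alone were low, and DDX4-null tumors lay below control tumors. In monolayers 31 of the 35 rose, and in tumors 6 fell, with median effects of 1.09 and -0.29. Of 36 G2 and mitosis genes 35 had a negative call and CDC20 (-0.34) did not, and the median effects were 1.02 and -0.22. After chromosome centring the negative counts were 33 and 36. MCM7, on chromosome 7, was then at -0.84, CCNE1 at -0.68 and CDC20 at -0.49, all called. With the 2-fold rule the negative counts were 23 and 22.

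MCM3, a subunit of the replicative helicase, held 45.3, 37.8, 38.4 and 44.2 CPM in control monolayers and 169, 171, 142 and 161 CPM in DDX4-null monolayers. Its tumor levels were 125, 132, 137 and 127 CPM in controls and 113, 106, 103 and 103 CPM in DDX4-null libraries. The groups did not overlap in either setting, and the order was reversed, with a difference of -2.25 ± 0.12 (adjusted p = 2.5e-11). Other factors that load or start the helicase differed in the same direction, MCM10 by -3.09, GINS2 by -2.73, GINS4 by -2.46 and CDT1 by -1.83. The histone chaperones CHAF1A and CHAF1B differed by -1.95 and -1.92, the ribonucleotide reductase subunit RRM2 by -1.88 and the sliding clamp PCNA by -1.41. E2F1 and E2F2, the factors that drive S phase genes, differed by -1.43 and -2.22. PCNA and E2F1 lie on chromosome 20 and were at -1.07 and -1.10 after centring.

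MKI67, the proliferation marker Ki-67, held 71.5 to 79.5 CPM in control and 212 to 246 CPM in DDX4-null monolayers. Control tumors held 143, 153, 178 and 154 CPM and DDX4-null tumors 106, 146, 116 and 115 CPM. The difference was -1.97 ± 0.14, and the tumor groups overlapped in 1 library. BUB1B, a kinase of the spindle checkpoint, rose from 47.9 ± 3.58 to 139 ± 10.4 CPM in monolayers and fell from 65.6 ± 5.21 to 51.5 ± 5.81 CPM in tumors, a difference of -1.89 ± 0.14. The mitotic kinases AURKB and PLK1 differed by -2.11 and -1.65, the kinesin KIF20A by -2.07 and the topoisomerase TOP2A by -1.85. The mitotic transcription factors MYBL2 and FOXM1 differed by -1.99 and -1.51, and MYBL2, on chromosome 20, was at -1.65 after centring. The tumor falls of MCM3, MKI67 and BUB1B were called in the fit of 16 libraries and not in that of the 8 tumor libraries, and those of MKI67 (-0.32, adjusted p = 0.0827) and BUB1B (-0.29, adjusted p = 0.0991) were not called by edgeR without DDX4-null tumor 1.

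RefSeq promoters of 3 genes of this group are shown because the genes moved together and hold short motifs, set in capitals. They are MCM3 (GRCh38.p14, chr6:52284693-52284992, minus strand), with an E2F motif 174 bases before the gene start, MKI67 (chr10:128126374-128126673, minus strand), with CHR elements 47 and 29 bases before it, and BUB1B (chr15:40160819-40161118, plus strand), with a CHR element 23 bases before it:
MCM3: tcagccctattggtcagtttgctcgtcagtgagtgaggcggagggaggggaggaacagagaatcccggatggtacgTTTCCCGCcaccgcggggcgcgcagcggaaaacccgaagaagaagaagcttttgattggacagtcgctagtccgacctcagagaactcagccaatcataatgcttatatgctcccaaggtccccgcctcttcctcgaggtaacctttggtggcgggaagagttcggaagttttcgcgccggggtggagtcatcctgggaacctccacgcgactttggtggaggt
MKI67: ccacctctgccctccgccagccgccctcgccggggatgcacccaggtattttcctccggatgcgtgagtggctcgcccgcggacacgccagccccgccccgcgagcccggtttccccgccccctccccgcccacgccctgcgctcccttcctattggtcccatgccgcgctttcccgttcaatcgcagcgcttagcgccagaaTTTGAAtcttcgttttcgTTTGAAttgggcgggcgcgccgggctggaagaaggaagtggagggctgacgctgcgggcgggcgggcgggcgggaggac
BUB1B: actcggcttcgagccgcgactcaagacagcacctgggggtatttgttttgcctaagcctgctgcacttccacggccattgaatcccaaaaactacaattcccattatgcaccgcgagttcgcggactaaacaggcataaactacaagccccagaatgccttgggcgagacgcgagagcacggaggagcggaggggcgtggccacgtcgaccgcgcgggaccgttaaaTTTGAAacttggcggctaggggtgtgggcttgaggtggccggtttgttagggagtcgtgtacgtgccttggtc
The E2F letters TTTGGCGC or TTTCCCGC, on either strand, were in 17 of 30 S phase genes with a window (56.7%) against 2.31% of all 27305 windows. The CHR letters TTTGAA were in 19 of 30 G2 and mitosis genes (63.3%) against 15.4%, and the CCAAT letters, which often stand beside them, in 24 of 30 (80%) against 35.7%. Cell cycle promoters are known for these motifs, and the shares say nothing of which factor was active in either setting.

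**Figure D3:**
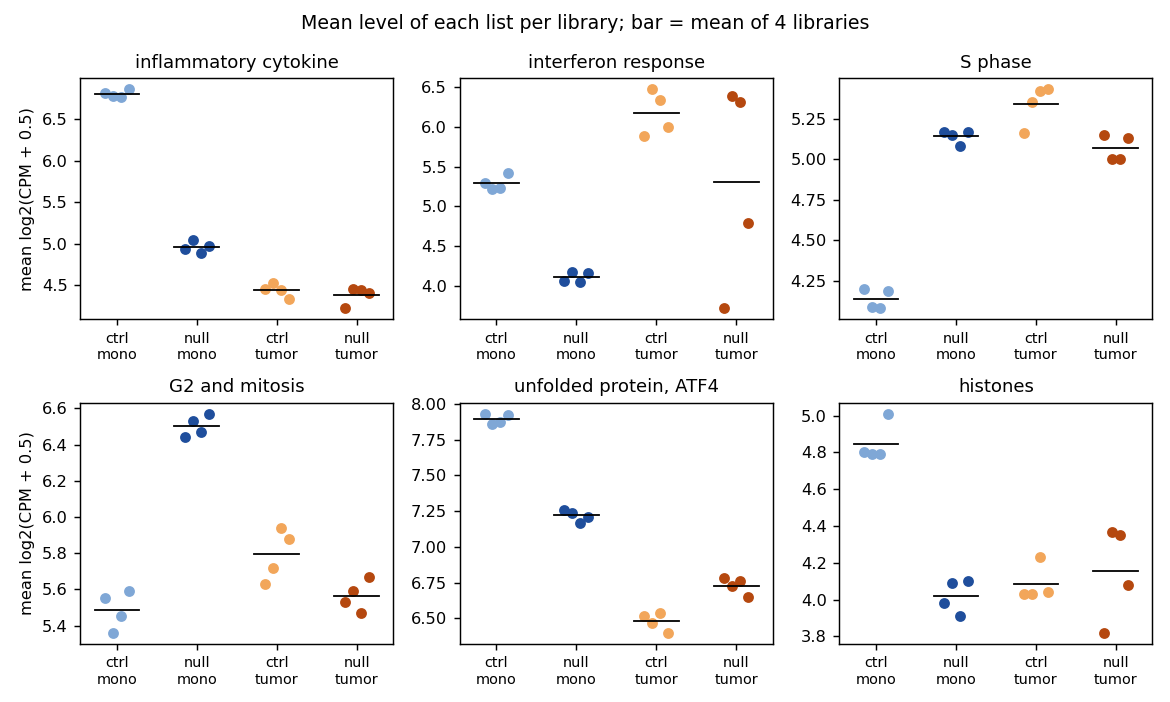
Mean log2(CPM + 0.5) of 6 gene lists in each of 16 libraries (points, 4 per group, bars are means), with ctrl, null and mono as in the plot of single genes. Control monolayers are the group apart for S phase genes and histones, unfolded protein genes have the genotypes in opposite order in monolayers and tumors, and DDX4-null tumors scatter from 3.72 to 6.39 for interferon response genes.

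The unfolded protein response raises chaperones of the endoplasmic reticulum, and the ATF4 arm raises genes of amino acid supply. Of 35 measured genes 29 had a positive and 1 a negative call, with medians of -0.61 in monolayers, 0.22 in tumors and 0.84 for the difference. Mean log2 levels were 7.86 to 7.93 in control monolayers, 7.17 to 7.26 in DDX4-null monolayers, 6.40 to 6.54 in control tumors and 6.65 to 6.78 in DDX4-null tumors, so the order of the genotypes was reversed without overlap. In monolayers 27 fell and in tumors 9 rose. HSPA5, the main chaperone of the endoplasmic reticulum, held 3242, 2782, 2925 and 3339 CPM in control monolayers and 989, 1020, 874 and 934 CPM in DDX4-null monolayers. In tumors it held 996, 886, 1054 and 827 CPM in controls and 1284, 1230, 1187 and 1101 CPM in DDX4-null libraries. The groups did not overlap in either setting, and the difference was 2.04 ± 0.14, although its tumor rise of 0.35 was not called in the 8 tumor libraries alone, nor without DDX4-null tumor 1 (0.32, adjusted p = 0.0921).

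Other chaperones and folding enzymes moved with HSPA5, DNAJB9 by 2.64, PDIA4 by 2.26, HSP90B1 by 1.86, MANF by 1.68 and DNAJC3 by 1.47. PDIA4 and DNAJB9 lie on chromosome 7 and were at 1.52 and 1.91 after centring. SEL1L, of the pathway that degrades misfolded proteins, differed by 1.75. Of the ATF4 arm, the growth inhibitor DDIT4 differed by 2.40, the factor DDIT3 by 1.02, and ASNS and PSPH, of asparagine and serine synthesis and both on chromosome 7, by 1.67 and 1.28 (0.94 and 0.54 after centring). The regulators themselves differed less, with XBP1 at 0.76, ATF6 at 0.34 and ATF4 at -0.05, the last not called. VLDLR, a lipoprotein receptor, was the gene with a negative call (-1.86).

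The RefSeq promoter of HSPA5 (GRCh38.p14, chr9:125241294-125241593, minus strand) is shown since it holds the ER stress element, the motif by which ATF6 and its partners are known to act, in capitals and starting 66 bases before the gene start:
HSPA5: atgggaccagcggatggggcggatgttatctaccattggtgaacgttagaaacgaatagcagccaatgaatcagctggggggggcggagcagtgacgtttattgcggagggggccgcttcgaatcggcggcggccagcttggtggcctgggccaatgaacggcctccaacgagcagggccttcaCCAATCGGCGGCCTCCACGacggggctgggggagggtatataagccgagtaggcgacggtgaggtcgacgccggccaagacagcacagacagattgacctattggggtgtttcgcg
The letters searched, on either strand, were CCAAT, any 9 bases, and CCACG, which begin with those of the CCAAT box. They were in 5 of 31 list genes with a window (16.1%), namely HSPA5, HSP90B1, XBP1, CALR and CRELD2, against 0.0806% of all 27305 windows. Chaperones of this response are known for the motif, and the shares say nothing of which factor was active in either setting.

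Growth factors of blood vessels had 16 positive calls among 23 genes and 1 negative, that of the receptor NRP2 (-1.56), with a median difference of 0.88. VEGFA, the main vascular growth factor, held 340 to 361 CPM in control and 130 to 145 CPM in DDX4-null monolayers. Control tumors held 125, 93.9, 94.5 and 80.8 CPM and DDX4-null tumors 181, 177, 174 and 126 CPM. It fell by 1.32 on the log2 scale in monolayers and rose by 0.74 in tumors, without overlap, and kept the tumor call in the 8 tumor libraries alone, with a difference of 2.06 ± 0.17. SEMA3C, a secreted semaphorin on chromosome 7, differed by 2.73 (2.00 after centring), the platelet-derived factor PDGFA by 2.26, the lymphatic factor VEGFC by 1.75, its co-receptor NRP1 by 1.39 and the hypoxia factors EPAS1 and HIF1A by 2.02 and 0.88. Endothelial and pericyte markers summed to 35.7 to 90.6 CPM in all libraries, with the highest sums in DDX4-null monolayers.

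Hypoxia and glycolysis genes had 15 positive and 2 negative calls among 32, with a median difference of 0.47. Their mean log2 level was 6.99 to 7.09 in control monolayers, 6.64 to 6.77 in DDX4-null monolayers and 7.28 to 7.51 in control tumors, and DDX4-null tumors 1 to 4 were at 8.27, 7.43, 7.57 and 7.59. DDX4-null tumor 1 was thus above every other library, and the counts were 14 positive and 2 negative without it. The largest after CA9 and VEGFA were the kinase PFKFB4 (2.01), the lipase inhibitor ANGPTL4 (1.64), the glucose transporter SLC2A1 (1.62) and the peptide hormone ADM (1.36). Enzymes of glycolysis itself moved less. PGK1 differed by 0.98 and LDHA by 0.49, HK1 by -0.56, and GAPDH (-0.08), ENO1 (0.15) and TPI1 (-0.17) were not called. The oxygen sensor EGLN3 was negative (-1.32).

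Genes of the matrix and its receptors went both ways. Among integrins, laminins and basement membrane genes 13 of 27 had a positive and 5 a negative call. NID2, a nidogen of basement membranes, held 12 to 17.2 CPM in control and 0.464 to 0.91 CPM in DDX4-null monolayers, and 20.1 to 23.2 and 17.9 to 25.7 CPM in tumors, a difference of 4.36 ± 0.25 in which DDX4-null monolayers alone were low. The collagen IV chains COL4A1 and COL4A2 (-1.42 and -1.11) and the integrin ITGB3 (-2.77) were negative, and ITGAV (1.54) and ITGB8 (1.67) positive. COL4A1 held 26.2 to 29.8 and 49.1 to 54.7 CPM in monolayers, and 100 to 131 and 61.8 to 90.2 CPM in tumors, with its order reversed and no overlap, though the tumor call was lost in the 8 tumor libraries alone.

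Proteases of the matrix split evenly, with 10 positive and 10 negative calls among 25. The plasminogen activator PLAU held 981 to 1100 CPM in control and 2979 to 3801 CPM in DDX4-null monolayers and 523 to 758 CPM in all 8 tumors, a difference of -1.74 ± 0.17. Its receptor PLAUR went the other way, at 1.36. TIMP1, an inhibitor of metalloproteases, held 729 to 1030 and 183 to 274 CPM in monolayers and 218 to 283 CPM in all tumors, a difference of 2.01 ± 0.19 with the tumors at the level of DDX4-null monolayers. MMP9 differed by -2.93 and MMP13 by 1.96.

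Epithelial junction genes had 8 positive and 7 negative calls among 22, and mesenchymal genes 7 and 4 among 22, or 7 and 9 without DDX4-null tumor 1. DSP, desmoplakin of desmosomes, held 87.9 to 108 and 287 to 364 CPM in monolayers and 53 to 104 CPM in all tumors, a difference of -1.97 ± 0.19. DSC2, a desmosomal cadherin, went from 49 to 58 CPM down to 18.6 to 21.1 CPM in monolayers, and its tumors held 59.9 to 92.4 and 85.6 to 130 CPM, a difference of 1.94 ± 0.18. The tight junction gene CLDN1 differed by 2.87, cingulin CGN by -2.61, E-cadherin CDH1 by 1.22 and EPCAM by -1.18. Among mesenchymal genes the repressors ZEB2 and ZEB1 differed in opposite directions, by 2.99 and -0.57. SPARC, a matrix glycoprotein that stroma also makes, held 21.5 to 27.6 and 6.92 to 7.93 CPM in monolayers, 182 to 266 CPM in control tumors and 233 to 549 CPM in DDX4-null tumors, a difference of 2.61 ± 0.28. The fibrillin FBN1 differed by 2.12 ± 0.25, with its highest level, 382 CPM, in DDX4-null tumor 1. SPARC was higher in tumors than in monolayers, as fibroblast markers were. FBN1 had group means of 194 CPM in control monolayers and 193 CPM in control tumors. Its DDX4-null monolayers, at 56.8 CPM, alone were low. The part of fibroblasts in the levels of both genes was not tested.

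Among Wnt genes 8 had a positive and 12 a negative call of 31. The ligand WNT9A held 24.1 to 31.9 and 3.71 to 6.5 CPM in monolayers and 12.1 to 13.5 and 14.5 to 19.6 CPM in tumors, a difference of 2.84 ± 0.21. The receptor FZD4 differed by 1.82 ± 0.15 and LGR4 by 1.31. The ligands WNT5A, WNT7A and WNT10B were negative (-1.56, -1.55 and -1.49), as were the ligase RNF43 (-1.28), the factor TCF7 (-1.21) and the receptors FZD7 and FZD1 (-1.13 and -0.91). The widely used reporter gene AXIN2 was at -0.01 and not called.

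Targets of YAP, which links cell shape to growth, had 3 positive and 11 negative calls among 20. DLC1, ANKRD1 and F3 differed by -3.37, -2.99 and -2.59, the DNA-binding partner TEAD4 by -2.04 and the matrix protein CCN2 by -0.94. IGFBP3, which binds insulin-like growth factors, was far on the other side. It held 55, 44.9, 54.5 and 57.8 CPM in control monolayers and 0.805, 0.177, 0.607 and 0.371 CPM in DDX4-null monolayers. Tumors held 49.4 to 84.4 CPM in controls and 50.2 to 148 CPM in DDX4-null libraries, with the 148 CPM in DDX4-null tumor 1, so DDX4-null monolayers alone were low. The difference was 7.14 ± 0.48, or 6.41 after centring chromosome 7. Without DDX4-null tumor 1 the difference was 6.73, and the tumor effect, which was not called, went from 0.40 to -0.03.

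TGF-beta and BMP genes had 9 positive and 10 negative calls among 27. ID2, an inhibitor of differentiation factors, held 12.8 to 17.9 and 86 to 129 CPM in monolayers and 37.3 to 61.2 and 64.3 to 69.4 CPM in tumors, a difference of -2.34 ± 0.21. The decoy receptor BAMBI differed by -2.37 ± 0.26, the BMP inhibitor NOG by -2.25 and the matrix protein TGFBI by -3.67, while the activin subunit INHBA and the inhibitor SMAD7 were at 1.51 and 1.45.

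Immediate early genes, which answer growth signals within minutes, had 12 positive and 5 negative calls among 31. FOSB (2.06), IER3 (1.62) and JUNB (1.41 ± 0.19) were positive and EGR2 (-1.16), EGR1 (-0.97), the phosphatase DUSP10 (-1.89) and MYC (-0.90) negative. Targets of NRF2, the regulator of the response to oxidants, had 13 positive and 2 negative calls among 26. FTH1, the ferritin heavy chain, held 19413 to 27754 and 8833 to 9607 CPM in monolayers and 2051 to 2493 and 2608 to 3582 CPM in tumors, a difference of 1.80 ± 0.18, and FTL, the light chain, differed by 1.42. The reductase AKR1C1 differed by 2.67 ± 0.26 and AKR1B1, on chromosome 7, by 3.14 (2.41 after centring), while NQO1 (0.16) and GCLM (0.45) were not called. AKR1C genes and ferritins have close copies, and their reads may be shared.

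Histone genes, whose RNAs mostly lack the poly(A) tail that the library kit selects, had 12 positive calls among the 13 measured of 57 in the list, and H2BC11 (0.03) was not called. H4C8 held 55.9 to 68.3 and 22.1 to 26.5 CPM in monolayers and 29.4 to 39.9 and 32.7 to 58.8 CPM in tumors, a difference of 1.74 ± 0.22. Histone genes are near copies of each other, so single values are uncertain. They had a positive difference where S phase genes had a negative one.

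Ribosomal protein genes had 21 positive calls among 77 (median 0.18), close to the 27.9% of all genes called positive. The largest were RPL10 (1.58 ± 0.25) and RPL17 (1.29 ± 0.18), both with many copies in the genome. Negative calls among them numbered 0 with edgeR, DESeq2 and limma's voom test, and 1 gene was negative at an unadjusted p under 0.05. With library totals the counts were 12 positive and 4 negative, and without DDX4-null tumor 1 they were 12 and 2. Nuclear genes of oxidative phosphorylation had 5 positive and 18 negative calls among 51, with ATP5MC1 of the ATP synthase at -1.36 ± 0.17 and NDUFB10 of complex I at -1.0 ± 0.14, and NDUFV2 at 2.06. Of the 13 mitochondrially encoded genes, MT-CYB (0.73 ± 0.26) and MT-ND6 (-0.52 ± 0.19) were called. Their groups overlapped in each setting except for MT-CYB in tumors, where controls held 1746 to 2022 CPM and DDX4-null tumors 2037 to 3383 CPM. Genes of cholesterol synthesis had 4 positive and 7 negative calls among 25, the regulator INSIG1 (1.06 ± 0.15) and the reductase TM7SF2 (1.08 ± 0.14) against the enzymes FDFT1 (-1.09) and SQLE (-0.59). Without DDX4-null tumor 1 these counts were 10 and 7. INSIG1 lies on chromosome 7 and was at 0.33 and not called after centring. MT-CYB lost its call in 4 alternatives and MT-ND6 in 8.

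Among genes of germ granules and of the RNA granules of other cells, 4 of 23 had a positive and 2 a negative call, fewer than the share of all genes in both directions. PLD6, an enzyme of the mitochondrial surface in the piRNA pathway, held 6.66 to 10.1 and 35.9 to 42.1 CPM in monolayers and 8.9 to 9.58 and 9.46 to 11.1 CPM in tumors, a difference of -1.97 ± 0.17 with the DDX4-null monolayers alone high. MOV10, an RNA helicase of granules, held 64.3 to 83.6 and 29.2 to 41.2 CPM in monolayers and 66.6 to 89.6 CPM in all tumors, a difference of 1.17 ± 0.16. DDX3X, a helicase of the same DEAD-box family as DDX4, differed by 0.77, G3BP2 and TIA1 of stress granules by 0.83 and 0.64, and TDRD3 by -0.57. G3BP1 (0.02), DDX6 (0.21) and PRMT5 (-0.16) were not called.

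The differences also followed chromosomes, given here as medians with no test. The 542 measured genes of chromosome 7 had a median difference of 0.78, made up of -0.75 in monolayers and 0.01 in tumors, and 69.4% of them had a positive call. Medians were 0.47 for X, 0.41 for chromosome 18, 0.39 for 14 and 0.30 for 11, and -0.46, -0.32 and -0.26 for 21, 22 and 20. Tumor medians lay between -0.10 and 0.06 on every chromosome but 20, at -0.19, and were 0.33 for the 13 mitochondrial genes. After centring each chromosome in each library, 2934 genes were positive and 2977 negative, against 3345 and 3081 without it. The copy number of the cells was not measured, and a change of setting and a difference of cell population between the groups cannot be told apart in this design.

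**Figure D4:**
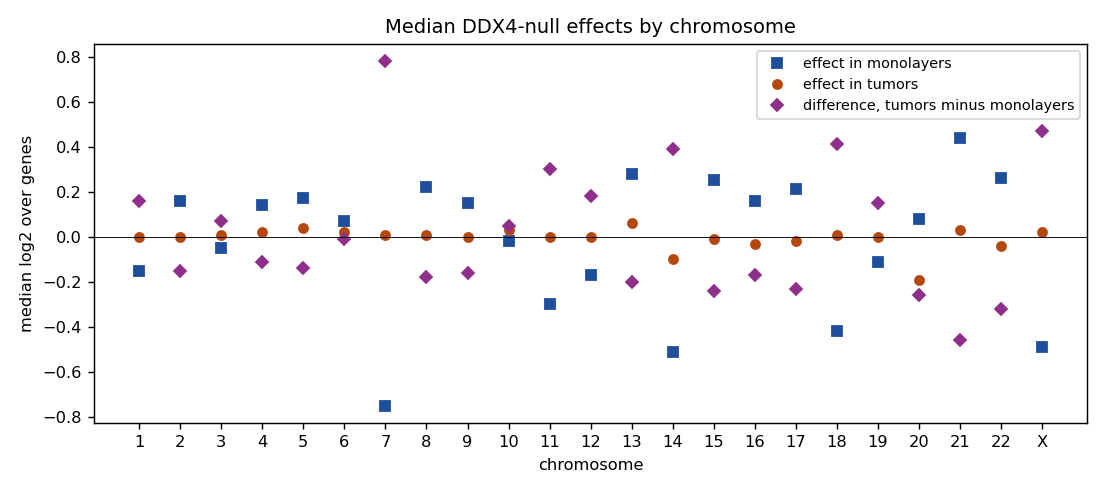
Median log2 DDX4-null effect in monolayers (squares), in tumors (circles) and their difference (diamonds) over the measured genes of each chromosome (x axis). The tumor medians lie between -0.19 and 0.06, while the monolayer medians run from -0.75 on chromosome 7 to 0.44 on chromosome 21. The differences mostly mirror the monolayer medians. Chromosome 20 departs from this, with 0.08 in monolayers, -0.19 in tumors and -0.26 for the difference.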

How the data were processed

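RNA was measured by stranded mRNA sequencing in 16 libraries, 4 in each of 4 groups. The authors deposited raw counts per gene, and the submitters' processing notes name Trimmomatic 0.39, STAR 2.7.10a, featureCounts 2.0.3 and GRCh37. The sources used here do not give the counting strand or the handling of host reads. Of 20356 gene IDs, 18979 were named from a table of gene names and 532 more from GENCODE v29, which also gave chromosomes and gene order on GRCh38.

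Counts were filtered by filterByExpr, scaled by TMM and fitted with 1 mean per group in edgeR 4.0.16 (R 4.3.3, quasi-likelihood test). P-values were adjusted by Benjamini-Hochberg over all 13603 genes tested. CPM are on the TMM scale, and list levels are means of log2(CPM + 0.5). A count of 0 was taken to allow 3 counts, which covers counting error only. The code was tested on simulated data.

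Alternatives were limma 3.58.1 (voom with quality weights), DESeq2 1.42.0, other scalings and filters, a 2-fold rule, 5 CPM or all 4 groups as the member rule, a replicate block, chromosome centring and leaving out each library. Fits of each setting alone and the tumor effects without DDX4-null tumor 1 were added after seeing the data.

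Genes and lists were chosen with earlier results of these data known. Among called genes, those named with full values were the 6 most positive and negative differences at 1 CPM in all groups, the 3 at exactly 3 groups, and the 4 with opposite called effects of each kind and the largest smaller effect. To these came the 4 largest with a bigger called tumor effect, and the 2 of smallest p per list. Other list genes and neighbors were picked after their values were seen. A gene of these and some list genes are not reported here.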

Additional observations from a re-analysis of the deposited data

Results flagged for a closer look

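The DDX4-null effect differed between monolayers and tumors, by edgeR's test of the difference itself, for every gene named here, which follows from their choice among called genes. The differences are tumor minus monolayer effects on the log2 scale. Above 4 were those of MUC5B (8.42), CA9 (7.87), PTGS2 (7.23), IGFBP3 (7.14), PICALM (5.26), SNX19 (5.07), TFF2 (4.89), AGR2 (4.48), SCUBE3 (4.36), NID2 (4.36), MUC5AC (4.31), ZNF415 (4.07) and MUC2 (4.04). Those of SHISA2 (3.95), IFI44L (3.83), IRF9 (3.19), SOD2 (2.99), WDR72 (2.89), WNT9A (2.84), SEMA3C (2.73), AKR1C1 (2.67), SPARC (2.61), PDIA4 (2.26), FBN1 (2.12), VEGFA (2.06), HSPA5 (2.04) and TIMP1 (2.01) were next in size. Smaller positive differences were found for DSC2 (1.94), FZD4 (1.82), FTH1 (1.80), H4C8 (1.74), RPL10 (1.58), JUNB (1.41), PSME2 (1.39), RPL17 (1.29), CALR (1.27), MOV10 (1.17), IER5 (1.12), TM7SF2 (1.08), INSIG1 (1.06) and MT-CYB (0.73).

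Below -4 were LCP1 (-11.30), KRT75 (-7.20), ADGRL2 (-5.61), ENTPD3 (-5.59), KALRN (-5.20), ADAMTS3 (-4.95), NEO1 (-4.69) and CD70 (-4.65). The remaining negative differences were those of EPHA4 (-3.64), NNMT (-3.55), SYT14 (-3.13), MCM10 (-3.09), CHST2 (-2.83), ADAM12 (-2.77), BAMBI (-2.37), ID2 (-2.34), MCM3 (-2.25), TEAD4 (-2.04), PLD6 (-1.97), DSP (-1.97), MKI67 (-1.97), BUB1B (-1.89), PLAU (-1.74), COL4A1 (-1.42), ATP5MC1 (-1.36), NDUFB10 (-1.0) and MT-ND6 (-0.52). In ZNF222 (8.94), CADM1 (-11.27) and SYK (-10.42) a monolayer group held 0 counts, so these fitted values depend on the offset of the model and no size is read from them. The monolayer groups of these 3 genes differed by at least 64.6-, 596- and 235-fold when 3 counts are allowed over the group at 0.

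In 13 of 320 groups of 4 libraries, 1 library lay far from the other 3, and chance alone gives about 1 in 20. In control monolayers it was library 4, with 284 CPM of FZD4 and a summed 31 CPM of keratinocyte and hair markers. In DDX4-null monolayers it was library 1, with 2.95 CPM of IFI44L and 21.3 CPM of IER5. In control tumors they were library 1 with 6.1 CPM of KALRN and library 2 with 62.5 CPM of JUNB. In DDX4-null tumors they were library 1 with a summed 11604 CPM of fibroblast markers and 46.1 CPM of INSIG1, library 2 with 2 CPM of ADGRL2 and 7.89 CPM of ZNF415, library 3 with 0.344 CPM of ENTPD3 and 108 CPM of SOD2, and library 4 with 126 CPM of VEGFA.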

How the results depend on the processing

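Of 72 genes chosen by the rule for named genes, 68 kept direction and call in every alternative run for them and none reversed. INSIG1 lost its call with chromosome centring, NDUFB10 with the 2-fold rule, MT-CYB in 4 alternatives and MT-ND6 in 8. Counts that rest on tumor effects moved most. Opposite genes (262) numbered 453 with DESeq2, 20 with the 2-fold rule, 87 with effects from 8 libraries each, and 117 to 291 with 1 library left out. Genes with the larger effect in tumors (194) numbered 303, 19, 85 and 96 to 272, and genes called in tumors (696) 1151, 82, 246 and 306 to 810, the lowest values being those without control tumor 3. Interferon response genes called positive (11) numbered 5 with voom and 7 to 20 with 1 library left out. The 2-fold rule left 1196 positive and 1132 negative differences, 2049 monolayer effects and 22 of 35 G2 and mitosis genes. With library totals 40.2% of the called differences were positive against 52.1% with TMM. Of 46 list counts, 10 stayed within 1.5 times in every alternative.

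The criterion for a replicate block, that every same-number pair correlate above 0.1, was not met. Of 24 such pairs, 11 had deviations from the group means that correlated above 0.1 (range -0.277 to 0.467). The median correlation was 0.0742 for same and -0.0195 for other numbers, and libraries matched their own number best in 23 of 48 cases against 12 by chance, a hint from the data and not the design. With the replicate block, 3407 differences were positive and 3154 negative, 335 genes were opposite, 255 larger in tumors and 887 called in tumors. Depth limits genes near 0 counts, DDX4 among them.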
